A study of Mus musculus with 173 samples.

Results

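Brown adipose tissue and gastrocnemius muscle of Q175 mice were set against each other within the same animals. Q175 is a knock-in mouse model of Huntington's disease and carries, on 1 of its copies of Htt (huntingtin), a CAG repeat expanded to a nominal length of 175. The libraries compared were those of the 8 heterozygous Q175 mice with both tissues, 16 of the 173 libraries of the series: 8 of brown adipose tissue and 8 of gastrocnemius, in each case 4 from females and 4 from males. They were chosen by genotype and tissue as the labels state them, and the pair of libraries of each mouse was found by the animal code in the library name. All were C57BL/6 mice aged 6 months, and the Q175 mice were kept with other Q175 mice. Libraries of 8 wild-type C57BL/6 mice of that age, kept with mice of the Q20 line, were used, in both tissues, for 1 comparison between genotypes and for a check of the labels, and genotype and housing cannot be told apart in them. Polyadenylated RNA was sequenced from frozen tissue. Each mouse is named here by its number in the brown adipose titles.

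Brown adipose tissue makes heat: its adipocytes hold many small lipid droplets and many mitochondria, in which uncoupling protein 1, the product of Ucp1, lets protons return to the matrix without making ATP. Gastrocnemius is a calf muscle made mostly of fast-contracting fibres, which work from ATP, creatine phosphate and glycogen, and take up and release calcium through the sarcoplasmic reticulum. Brown adipocytes and skeletal muscle fibres share a developmental origin, since both can arise from precursors that have expressed the myogenic factor Myf5. Both tissues are rich in mitochondria and burn fatty acids.

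The labels fitted the marker genes. Ucp1 had 1884 to 4385 CPM (counts scaled to a library total of 1e+06 after TMM correction) in the 8 brown adipose libraries, with a median of 2588, and no count in any of the 8 gastrocnemius libraries. Prdm16, which encodes a regulator of brown adipocyte fate, had 18.96 to 38.79 CPM in brown adipose (median 32.3) and 2.35 to 6.48 CPM in gastrocnemius (median 4.18). The fast myosin heavy chain gene Myh4 had 0.889 to 232.0 CPM in brown adipose (median 128.3) and 38880 to 71480 CPM in gastrocnemius (median 47390). Ckm, the muscle creatine kinase gene, had 0.208 to 81.6 CPM in brown adipose (median 37.2) and 12140 to 16880 CPM in gastrocnemius (median 14890). The ranges of the tissues did not overlap for any of the 4 markers, as for 58.1% of all genes tested. Depth was alike, with 39.3 to 46.9 M (mega) estimated counts in brown adipose and 36.5 to 47.2 M in gastrocnemius. The first principal component held 93.2% of the variance and separated the tissues, and the second held 1.81% and separated the sexes. One mouse went against its genotype label in part. Abhd1, at 7.61 CPM or more in brown adipose and 2.7 CPM or more in gastrocnemius of the other Q175 mice, had 1.78 and 0.672 CPM there in Q175 male 3, within the wild-type ranges of 1.16 to 2.96 CPM and 0.303 to 1.11 CPM. The Htt level of this mouse in gastrocnemius, 20.9 CPM, lay below the wild-type range of 21.98 to 28.9 CPM, as did that of the other Q175 mice. In brown adipose its 26.03 CPM and the 24.3 to 30.7 CPM of all Q175 mice lay inside the wild-type range of 15.8 to 39.3 CPM, so Htt separated the genotypes in 1 tissue only. Without this mouse 1 fewer member rose in the lists of brown fat identity (23), complex I (26), complex V (6), glycolysis and glycogen (10) and secreted factors (10), 6 in place of 5 members of complex V fell, with Atp5e added (adjusted p = 0.0371), and 16 of 16 tested slow fibre and cardiac genes fell. Larger changes are given beside the results.

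The DNA just before the start of 6 genes is shown to let the reader see an E-box in place. Ucp1, Myh4 and Ckm are markers with a large difference, Mylpf (a fast myosin light chain) and Atp2a1 (the fast-fibre calcium pump) were picked because they hold the E-box, and Mybpc2 (a fast myosin binding protein) is the fast fibre gene with the largest fall among those without it. The choice of genes therefore carries no result. The sequences are the 250 bases before the annotated start on the gene's strand, from RefSeq with build GRCm38.p6: chr8:83290098-83290347 on the + strand for Ucp1, chr11:67237562-67237811 on the + strand for Myh4, chr7:19410844-19411093 on the + strand for Ckm, chr7:127211358-127211607 on the + strand for Mylpf, chr7:126463074-126463323 on the - strand for Atp2a1 and chr7:44524670-44524919 on the - strand for Mybpc2. Capitals mark CAGCTG, an E-box of the form that myogenic factors such as MyoD bind.
Ucp1: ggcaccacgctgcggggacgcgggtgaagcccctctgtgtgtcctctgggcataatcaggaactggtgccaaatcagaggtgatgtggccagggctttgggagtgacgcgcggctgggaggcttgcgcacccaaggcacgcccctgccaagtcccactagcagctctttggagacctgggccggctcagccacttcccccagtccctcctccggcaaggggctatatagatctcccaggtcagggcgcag
Myh4: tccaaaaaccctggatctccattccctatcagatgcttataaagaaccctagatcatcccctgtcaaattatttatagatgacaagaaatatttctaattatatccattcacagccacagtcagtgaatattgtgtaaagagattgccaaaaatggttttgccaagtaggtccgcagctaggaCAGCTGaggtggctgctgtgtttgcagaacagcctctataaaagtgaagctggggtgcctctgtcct
Ckm: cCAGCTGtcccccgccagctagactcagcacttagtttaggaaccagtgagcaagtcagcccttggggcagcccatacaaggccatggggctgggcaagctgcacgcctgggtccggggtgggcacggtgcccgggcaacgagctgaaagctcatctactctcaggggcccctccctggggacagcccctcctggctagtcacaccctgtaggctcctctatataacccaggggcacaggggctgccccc
Mylpf: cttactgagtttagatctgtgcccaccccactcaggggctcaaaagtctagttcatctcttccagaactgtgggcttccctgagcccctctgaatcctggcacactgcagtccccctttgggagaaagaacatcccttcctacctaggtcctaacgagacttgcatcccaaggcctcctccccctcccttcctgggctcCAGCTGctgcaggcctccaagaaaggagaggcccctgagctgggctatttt
Atp2a1: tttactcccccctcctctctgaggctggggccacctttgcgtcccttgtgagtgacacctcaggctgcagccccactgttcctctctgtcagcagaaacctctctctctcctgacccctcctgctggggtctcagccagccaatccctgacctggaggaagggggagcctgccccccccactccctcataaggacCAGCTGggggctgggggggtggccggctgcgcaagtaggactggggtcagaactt
Mybpc2: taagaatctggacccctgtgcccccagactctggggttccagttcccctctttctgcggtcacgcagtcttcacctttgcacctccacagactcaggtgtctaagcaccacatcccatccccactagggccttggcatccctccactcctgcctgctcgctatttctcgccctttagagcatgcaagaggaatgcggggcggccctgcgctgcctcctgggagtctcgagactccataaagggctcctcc
The E-box began 67 bases before the start in Myh4, 249 bases before it in Ckm, 51 bases before it in Mylpf and 55 bases before it in Atp2a1, and these letters were not in the windows of Ucp1 and Mybpc2. CAGCTG, which is its own reverse complement, was in the promoter window (250 bases before to 50 after the start) of 79 of 453 genes over 8-fold higher in brown adipose (17.4%), of 157 of 673 genes over 8-fold higher in gastrocnemius (23.3%) and of 1683 of 10846 tested genes with a window (15.5%). Over the whole table it was in 4353 of 27025 windows (16.1%). TATAAA, searched likewise on both strands, was in 52 of the 453 brown adipose genes (11.5%), in 96 of the 673 gastrocnemius genes (14.3%) and in 800 of the 10846 tested (7.38%). The other searches were CATTCC, in 10.2% of the brown adipose genes, 16.8% of the gastrocnemius genes and 12.2% of those tested, and AAGGTCA, in 4.42%, 4.9% and 3.2%. Of the brown fat identity genes with a window, 1 of 18 held CAGCTG, 5 CATTCC, 4 TATAAA and 1 AAGGTCA. Of the fast fibre and sarcomere genes with a window, 7 of 18 held CAGCTG, 7 CATTCC, 5 TATAAA and 0 AAGGTCA. A match is a description of these letters and not of a bound site.

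Most genes differed between the tissues. Of 14558 genes tested, 11936 (82.0%) were called at a Benjamini-Hochberg adjusted p under 0.05 in edgeR's quasi-likelihood test with the animal as a block, 6075 of them (41.7%) higher in brown adipose and 5861 (40.3%) higher in gastrocnemius. With a fold over 2 added, 3198 (22%) were higher in brown adipose and 3052 (21%) higher in gastrocnemius. With a fold over 8, the counts were 667 (4.58%) and 940 (6.46%). For 8462 genes (58.1%) the ranges of the 8 brown adipose and 8 gastrocnemius libraries did not overlap. A call by itself therefore sets a gene little apart from the rest, and the size of the difference is given throughout as the log2 fold change of brown adipose over gastrocnemius with its standard error. The median over all tested genes was 0.03. It was 0.13 with upper quartile scaling and with log2 FPKM plus 1, and 0.22 with log2 FPKM plus 0.1, so a value from one of these settings is to be read against that shift. In bulk tissue, fewer cells of a type and less RNA per cell cannot be told apart.

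**Figure D1:**
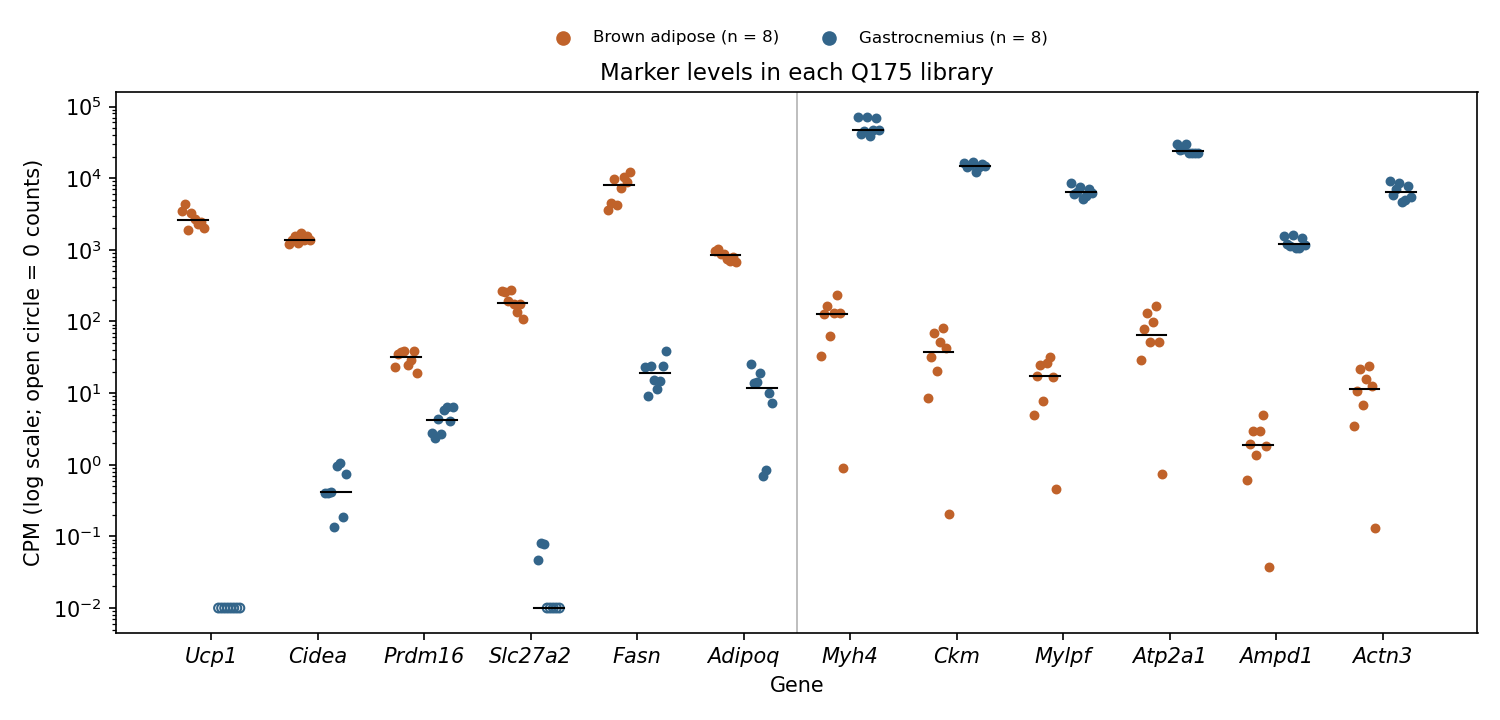
Levels (CPM on a log scale) of 6 adipose and 6 muscle genes in each Q175 library, brown adipose left of gastrocnemius for each gene; bars mark medians of 8 and open circles libraries with no count. Ucp1 lies between 1884 and 4385 CPM in brown adipose and at 0 in gastrocnemius, and the lowest brown adipose point of each muscle gene is Q175 male 4.

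Genes of brown adipocyte identity and thermogenesis were higher in brown adipose. Of 28 listed, 26 were tested, 24 rose in brown adipose, 15 of these over 8-fold, 1 fell and 1 was not called, with a median log2 fold change of 3.86. Ucp1 was at least 22930-fold higher, set against the 3 counts per library that a count of 0 allows. Cidea, whose product acts on lipid droplets, had 1215 to 1742 CPM in brown adipose (median 1378) and 0.136 to 1.05 CPM in gastrocnemius (median 0.414), a log2 fold change of 11.50 ± 0.38 (SE, adjusted p = 6.49e-10). Slc27a2, a fatty acid transporter and acyl-CoA synthetase gene, had 109.8 to 274.3 CPM in brown adipose, and in gastrocnemius 8 counts over all 8 libraries, so no fold is given. Kcnk3, a potassium channel gene, had 189.1 to 295.6 CPM in brown adipose and 0.0895 to 3.52 CPM in gastrocnemius, with a log2 fold change of 9.22 ± 0.63. Otop1, a proton channel gene used as a brown fat marker, had 110.1 to 172.8 CPM in brown adipose and 0.072 to 0.438 CPM in gastrocnemius. All 8 mice had the higher level in brown adipose for each of these genes. No ranges overlapped, which held for 58.1% of all genes tested. The thyroid hormone activating enzyme gene Dio2 was higher by 6.93 ± 0.28 and the fatty acid elongase gene Elovl3 by 6.50 ± 0.19 on the log2 scale. Nrg4, which encodes a secreted growth factor of brown fat, was higher by 6.43 ± 0.14.

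Not every gene tied to thermogenesis stood far apart. Ppargc1a, which encodes the mitochondrial coactivator PGC-1alpha, had 40 to 165.7 CPM in brown adipose (median 64.01) and 35.4 to 59.95 CPM in gastrocnemius (median 45.2). It was higher in brown adipose in 4 of 8 mice, and its log2 fold change of 0.62 ± 0.26 passed narrowly (adjusted p = 0.0476). That call was lost in 6 of 18 alternatives, at adjusted p from 0.0803 to 0.147: without Q175 female 1, female 2, female 4 or male 3, with no filter and in the libraries of code L6. Its relative Ppargc1b was higher by 2.95 ± 0.20. Zfp516, which encodes a transcription factor of brown fat, fell: it had 8.2 to 12.6 CPM in brown adipose and 20.8 to 27.8 CPM in gastrocnemius, a log2 fold change of -1.22 ± 0.07. Esrrg, an orphan nuclear receptor gene of oxidative tissues, had 15.7 to 25.9 CPM in brown adipose and 7.03 to 58.4 CPM in gastrocnemius and was not called (adjusted p = 0.212). Without Q175 female 1 it was lower in brown adipose by 0.79 on the log2 scale, with an adjusted p of 0.0119. Ucp3, the uncoupling protein relative of muscle and brown fat, had 56.9 to 141.0 CPM in brown adipose and 57.4 to 191.1 CPM in gastrocnemius. Its log2 fold change was 0.01 ± 0.17 (adjusted p = 0.974). The levels of Ucp3 overlapped almost fully while those of Ucp1 did not overlap at all.

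General adipocyte genes moved the same way. Of 25 listed, 24 were tested, 23 rose in brown adipose, 18 of these over 8-fold, and 1 fell, with a median of 4.96. Adipoq, the adiponectin gene, had 666.0 to 1017 CPM in brown adipose (median 839.9) and 0.686 to 25.5 CPM in gastrocnemius (median 11.8). Plin1, which coats lipid droplets, had 381.1 to 536.6 CPM in brown adipose and 0.336 to 6.16 CPM in gastrocnemius, a log2 fold change of 7.64 ± 0.54. Fabp4, the adipocyte fatty acid binding protein gene, had 5359 to 7737 CPM in brown adipose and 116.4 to 175.1 CPM in gastrocnemius, a log2 fold change of 5.38 ± 0.14. The gastrocnemius libraries thus held adipocyte transcripts at a low and uneven level, from 0.686 CPM of Adipoq in Q175 male 1 to 25.5 CPM in Q175 female 1, with Ucp1 at 0 in each of them. Their part in the contrast was not tested. Sfrp5, a secreted Wnt inhibitor gene, fell to 0.583 to 1.59 CPM in brown adipose, against 2.97 to 9.84 CPM in gastrocnemius, a log2 fold change of -2.41 ± 0.31.

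The synthesis of fatty acids and triglycerides was among the most unequal processes. All 21 listed genes were tested, 20 rose in brown adipose, 12 of them over 8-fold, and none fell, with a median of 4.16. Fasn, fatty acid synthase, had 3621 to 12150 CPM in brown adipose (median 7965) and 9.11 to 38.9 CPM in gastrocnemius (median 19.2), a log2 fold change of 8.58 ± 0.31 (adjusted p = 9.98e-10). Scd1, which desaturates stearoyl-CoA, had 8938 to 29310 CPM in brown adipose and 31.8 to 217.6 CPM in gastrocnemius, a log2 fold change of 7.40 ± 0.51. Elovl6, which extends palmitate, had 382.1 to 600.9 CPM in brown adipose and 1.14 to 4.17 CPM in gastrocnemius, and the ranges of all 3 genes lay far apart. Pck1, phosphoenolpyruvate carboxykinase, which makes the glycerol backbone in fat cells, had 2300 to 4885 CPM in brown adipose and 0.328 to 17.4 CPM in gastrocnemius, a log2 fold change of 9.69 ± 0.72. Me1, the cytosolic malic enzyme gene that supplies NADPH, was the member not called, with 254.3 to 660.7 CPM in brown adipose and 236.7 to 438.7 CPM in gastrocnemius (adjusted p = 0.0916). It was called higher in brown adipose with upper quartile scaling, from FPKM and without Q175 female 4, with log2 fold changes from 0.49 to 0.59.

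Genes of lipolysis and of the adrenergic signal that starts it followed. All 20 listed genes were tested, and 19 rose in brown adipose, 14 of them over 8-fold. The beta-3 adrenergic receptor gene Adrb3 had 84.1 to 195.7 CPM in brown adipose and 0.0298 to 1.94 CPM in gastrocnemius. Adrb1, the beta-1 receptor gene, had 8.67 to 26.01 CPM in brown adipose and 0 to 0.328 CPM in gastrocnemius. The ranges of the tissues did not overlap for either receptor gene, as for 58.1% of all genes tested. Prkar2b, a regulatory subunit of protein kinase A, had 783.6 to 1367 CPM in brown adipose and 0.627 to 5.86 CPM in gastrocnemius, whereas Prkar1a was higher by only 0.33 ± 0.09.

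**Figure D2:**
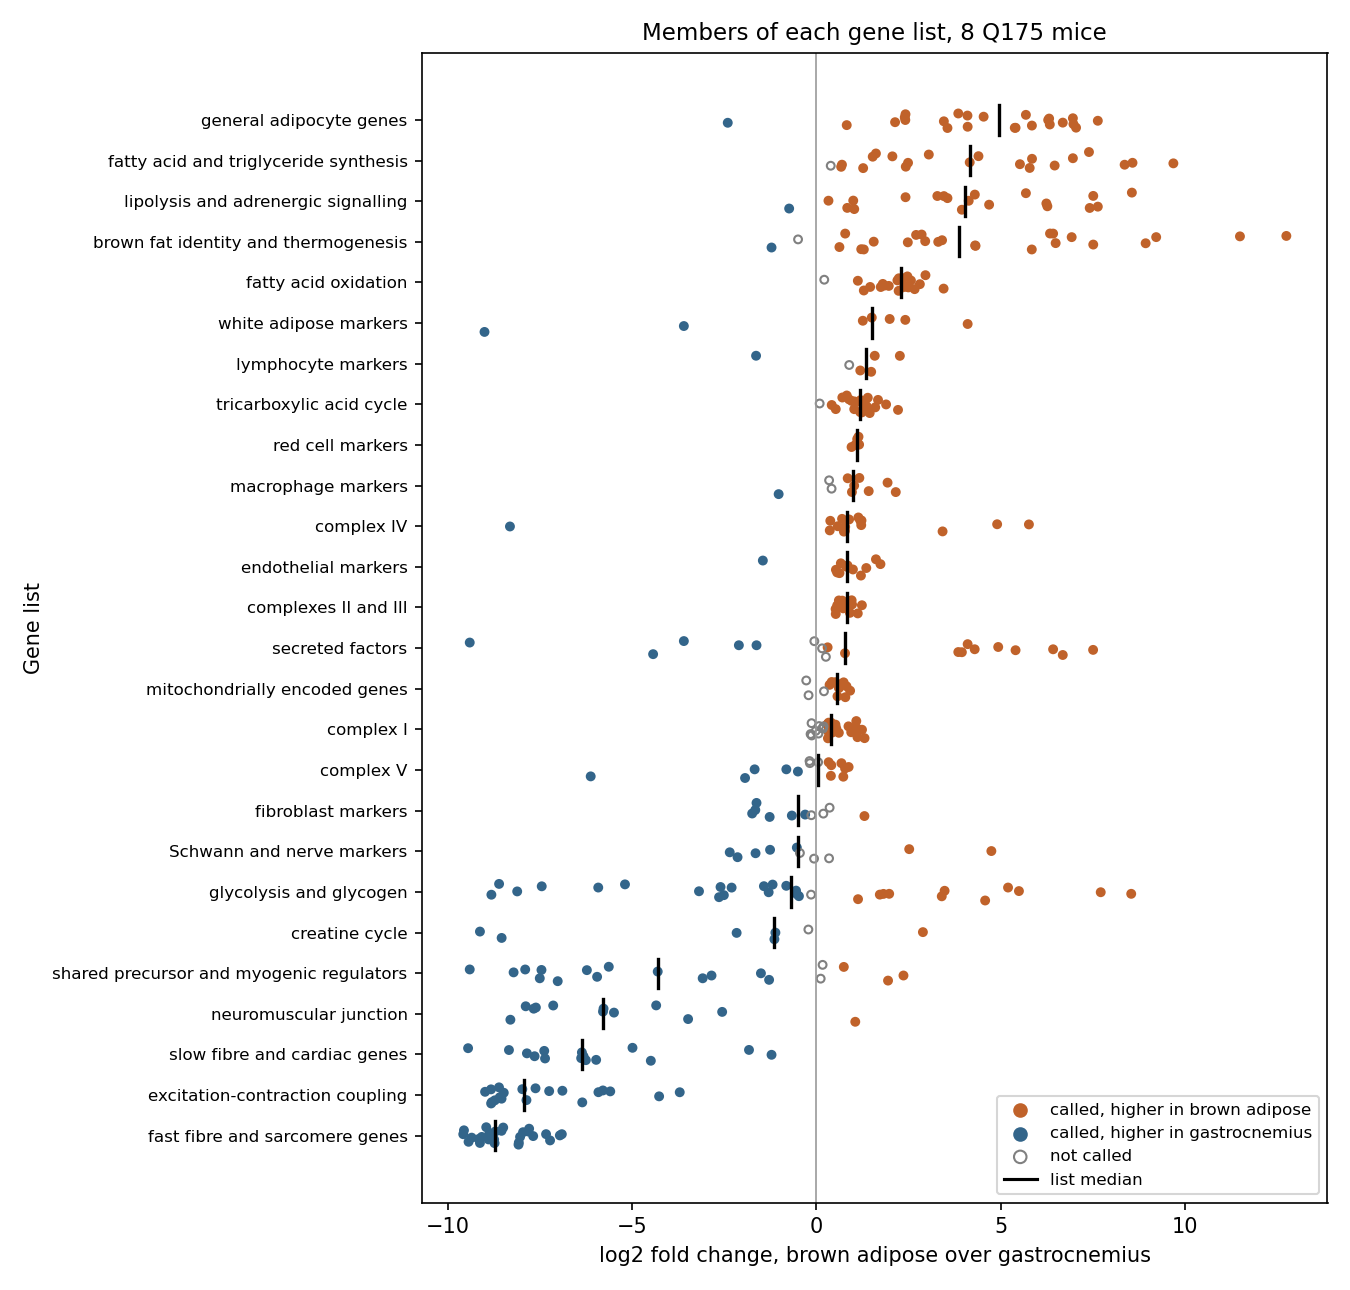
Log2 fold change of brown adipose over gastrocnemius for each tested member of the gene lists with at least 5 tested members, filled where called and open where not; black bars are list medians, Ucp1 is left out because its gastrocnemius count is 0, and points with a few counts in 1 tissue, such as Slc27a2 and Hoxc9, depend on the prior count. Adipocyte genes, with a median of 4.96, lie at the top, the medians of the respiratory complexes lie between 0.04 and 0.83, and the fast fibre and sarcomere genes, with a median of -8.73, lie at the bottom.

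Fatty acid oxidation and the tricarboxylic acid cycle were higher in brown adipose by smaller and more even amounts. All 23 listed oxidation genes were tested, and 22 rose, each over 2-fold, with a median of 2.29. Acaa2, the last enzyme of the beta-oxidation spiral, had 1450 to 2097 CPM in brown adipose and 76.8 to 247.3 CPM in gastrocnemius, a log2 fold change of 3.45 ± 0.23. Cpt1b, the muscle-type carnitine palmitoyltransferase that admits fatty acids to mitochondria, was the main form in both tissues, with 691.7 to 933.9 CPM in brown adipose and 235.6 to 422.3 CPM in gastrocnemius. Cpt1a, the liver-type form, was not called, at medians of 11.4 CPM in brown adipose and 10.4 CPM in gastrocnemius. Of 21 listed genes of the cycle and its entry steps, 20 rose, 14 over 2-fold, with a median of 1.19. Pcx, pyruvate carboxylase, had 497.7 to 697.1 CPM in brown adipose and 70.3 to 340.3 CPM in gastrocnemius, a log2 fold change of 2.21 ± 0.24. Mdh2, the mitochondrial malate dehydrogenase gene, was the exception, with medians of 640.4 CPM in brown adipose and 643.5 CPM in gastrocnemius (adjusted p = 0.488). From FPKM it was called higher in brown adipose, by 0.3 on the log2 scale, where the median of all genes was 0.13 to 0.22.

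The respiratory chain was nearer to equal. Transcripts encoded by mitochondrial DNA took 36.6 to 40.2% of the counts in brown adipose and 16.9 to 26.6% in gastrocnemius. Of the 13 listed, 10 rose, none over 2-fold, among them mt-Cytb, the cytochrome b gene, by 0.91 ± 0.16 on the log2 scale. Of 36 nuclear genes of complex I, 27 rose, 8 of them over 2-fold, and 9 were not called, with a median of 0.40. The count was 31 with upper quartile scaling and 32 from FPKM, 21 without Q175 female 1, female 3 or female 4, and 19 in the libraries of code L6. All 14 genes of complexes II and III rose, with a median of 0.82. Of 16 genes of complex IV, which passes electrons to oxygen, 15 rose and 1 fell, with a median of 0.83. Of 16 genes of complex V, the ATP synthase, 15 were tested, 7 rose, 5 fell and 3 were not called, with a median of 0.04, which is near the shares of all genes tested (41.7% and 40.3%). Whether it differs from the other complexes was not tested. The falls included Atp5g1, which encodes a form of the membrane ring subunit c. It had 3.55 to 6.95 CPM in brown adipose (median 4.49) and 229.0 to 424.2 CPM in gastrocnemius (median 365.8), a log2 fold change of -6.13 ± 0.15 (adjusted p = 9.08e-11). Atp5g3, another subunit c gene with the same mature protein, had 110.1 to 152.1 CPM in brown adipose and 285.2 to 511.4 CPM in gastrocnemius, a log2 fold change of -1.68 ± 0.12. Atp5j, a peripheral stalk gene, fell to 75.95 to 97.04 CPM in brown adipose, against 268.8 to 398.3 CPM in gastrocnemius. The catalytic subunit gene Atp5b rose, by 0.73 ± 0.13. The third subunit c gene, Atp5g2, is listed at 0 in every library of both tissues, and reads of such near-identical genes may be divided between them or lost, so the levels of single subunit c genes are uncertain.

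The contractile genes of fast fibres made up the other end of the contrast. All 28 listed genes were tested, and all 28 fell over 8-fold in brown adipose, with a median of -8.73. Their summed level was 140.8 to 1385 CPM in brown adipose (median 737.2) and 170400 to 237500 CPM in gastrocnemius. Mylpf had 0.454 to 31.5 CPM in brown adipose (median 17.1) and 5097 to 8432 CPM in gastrocnemius (median 6313), a log2 fold change of -9.09 ± 0.80. Actn3, the fast-fibre alpha-actinin gene, had 0.132 to 23.6 CPM in brown adipose and 4714 to 9208 CPM in gastrocnemius, a log2 fold change of -9.57 ± 0.88. Ampd1, the muscle AMP deaminase gene, had 0.0378 to 4.89 CPM in brown adipose and 1045 to 1627 CPM in gastrocnemius, a log2 fold change of -9.59 ± 0.69. For these 3 genes every brown adipose library lay far below every gastrocnemius library. Myh4 fell by 9.36 ± 0.98 on the log2 scale and Ckm by 9.14 ± 0.98. The large errors went with 1 library: Q175 male 4 held the least of each, and without this mouse Myh4 fell by 8.89 and Ckm by 8.67. Lrrc14b, a leucine-rich repeat gene, had at most 7 counts in any brown adipose library and 115.7 to 143.5 CPM in gastrocnemius.

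Excitation-contraction coupling genes behaved likewise, all 20 listed falling over 8-fold with a median of -7.93. Ryr1, the calcium release channel gene, had 0.378 to 20.3 CPM in brown adipose and 3362 to 4105 CPM in gastrocnemius, a log2 fold change of -9.00 ± 0.68. Atp2a1 had 0.737 to 163.2 CPM in brown adipose and 22370 to 29840 CPM in gastrocnemius, a log2 fold change of -8.84 ± 0.89. Its promoter holds 1 of the 4 printed E-boxes. Of 13 listed genes of the neuromuscular junction, 12 were tested and 11 fell, 10 of them over 8-fold. Utrn, which encodes the dystrophin relative utrophin, was the exception, with 70.1 to 116.7 CPM in brown adipose and 27.2 to 60.1 CPM in gastrocnemius, a log2 fold change of 1.05 ± 0.19 in 8 of 8 mice. Of 20 listed slow fibre and cardiac genes, 15 were tested and all 15 fell. Within them Atp2a2, the calcium pump gene of slow fibres and most other cells, had 167.3 to 310.4 CPM in brown adipose and 88.3 to 1328 CPM in gastrocnemius, with a log2 fold change of -1.22 ± 0.42 (adjusted p = 0.0212) in 7 of 8 mice. That call was lost, at adjusted p from 0.053 to 0.0542, without Q175 female 3, male 1, male 2 or male 4, and at 0.129 without the 2 mice with most sarcomere transcripts in brown adipose.

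The muscle transcripts in brown adipose could be read as a share of the level in the same mouse's gastrocnemius. That share had a median over the 8 mice of 0.248% for Myh4, 0.245% for Ckm, 0.262% for Mylpf, 0.268% for Atp2a1 and 0.174% for Actn3. It ranged from 0.00186% in Q175 male 4 to 0.492% for Myh4. Some genes on the muscle lists stood far above this share. It was 33.7% for Atp2a2, 16.8% for Tpm3, a tropomyosin gene of slow fibres and of non-muscle cells, and 9.41% for Chrnb1, a subunit gene of the acetylcholine receptor. In Q175 male 4, where the share of Myh4 was lowest, it was 19.9% for Atp2a2, 16.8% for Tpm3 and 9.48% for Chrnb1. Over the 8 mice the share ran from 15.5 to 222.5% for Atp2a2, from 10.7 to 184.8% for Tpm3 and from 5.27 to 18.1% for Chrnb1. For Atp2a2 the gastrocnemius level, given above, varied more widely than the brown adipose level, so its share depends on both tissues. The source of the transcripts of these 3 genes in brown adipose was not tested. Nor was the source of the sarcomere transcripts there.

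**Figure D3:**
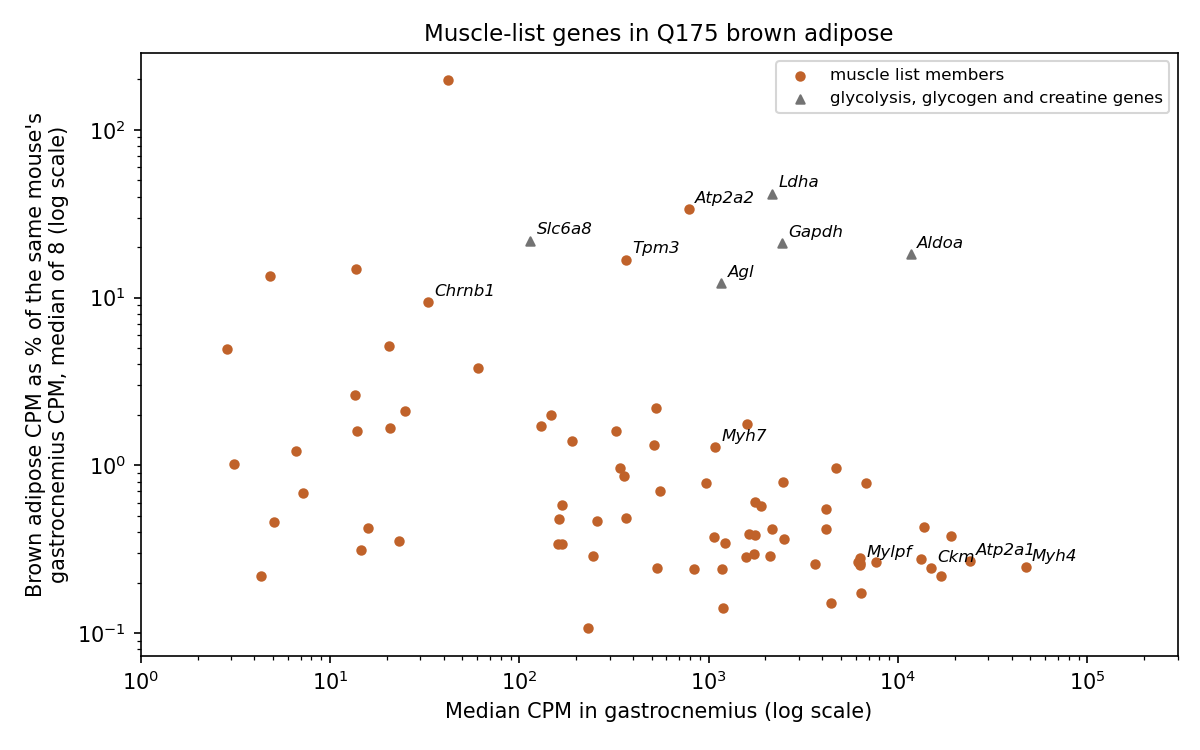
Each point is a gene of the fast fibre, slow fibre, coupling or neuromuscular junction lists (circles) or 1 of 5 genes of glycolysis, glycogen and creatine (triangles): its median gastrocnemius CPM against its brown adipose CPM as a percentage of the same mouse's gastrocnemius CPM (median of 8 mice), both on log scales. Myh4, Ckm, Mylpf and Atp2a1 lie near 0.25%, while Tpm3, Atp2a2 and the triangles lie between 12.2 and 41.6%.

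Gastrocnemius libraries differed among themselves in slow fibre transcripts. The summed slow fibre and cardiac list was 283.5 to 380.9 CPM in brown adipose and 993.3 to 9401 CPM in gastrocnemius. In gastrocnemius it was 2269 CPM in Q175 female 1, 2417 CPM in female 4 and 993.3 CPM in male 3, and 6404 CPM or more in the other 5. The 3 low libraries also had the lowest share of mitochondrially encoded counts, 16.9, 18.1 and 18.8%, and the highest Myh4, 71480, 71410 and 68230 CPM. In the other 5 gastrocnemius libraries that share was 22.6% or more. What these libraries share was not tested further. Ldhb, the heart-type lactate dehydrogenase subunit gene, was also lowest in these 3 gastrocnemius libraries, at 54.2, 132.0 and 54.4 CPM, against 333.9 CPM or more in the other 5. It had 389.3 to 593.1 CPM in brown adipose and 54.2 to 585.3 CPM in gastrocnemius, with a log2 fold change of 1.13 ± 0.47 at an adjusted p of 0.0471. That call was lost in 8 alternatives, among them leaving out Q175 female 1, 2, 3 or 4 or male 3, at adjusted p from 0.0578 to 0.11, and the fit with no animal block, at adjusted p = 0.104.

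Many enzymes and mitochondrial proteins come in paralogues, and the tissues used different ones. Shares are of the FPKM summed over a pair, a level per gene length, and the reads of close paralogues can be divided with error. Cox6a1 held 99.5 to 100% of the cytochrome c oxidase subunit 6A pair in brown adipose and 2.11 to 3.5% in gastrocnemius, where the muscle form Cox6a2 made up the rest. Cox8a held 26.2 to 32.95% of the subunit 8 pair in brown adipose and 2.61 to 3.73% in gastrocnemius. The muscle form Cox8b was thus the larger part in both tissues, and it was also higher in brown adipose, by 1.22 ± 0.11 on the log2 scale. Cox7a2 held 34.3 to 39.7% of the subunit 7A pair in brown adipose and 27.8 to 35% in gastrocnemius, so Cox7a1, known from heart and muscle, led in both. The 3 subunit pairs of 1 complex differed in this way: subunit 6A changed form almost fully, subunit 8 in part and subunit 7A little. Slc25a5, an adenine nucleotide translocator gene, held 62.6 to 70.4% of its pair in brown adipose and 1.39 to 1.9% in gastrocnemius, where the muscle form Slc25a4 led.

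Glycolytic and glycogen genes split in the same manner. Of the 30 listed, 11 rose in brown adipose, 18 fell and 1, the hexokinase gene Hk2, was not called (medians of 326.0 CPM in brown adipose and 377.6 CPM in gastrocnemius, adjusted p = 0.223). The list's median of -0.69 thus hides opposed changes. Pfkl, the liver-type phosphofructokinase gene, had 302.9 to 446.0 CPM in brown adipose and 6.95 to 9.7 CPM in gastrocnemius, a log2 fold change of 5.498 ± 0.143. Pfkm, the muscle type, had 72.5 to 115.4 CPM in brown adipose and 2904 to 3754 CPM in gastrocnemius, a log2 fold change of -5.20 ± 0.15. Eno1 held 98.7% (median) of the enolase pair in brown adipose and 1.71% in gastrocnemius, where Eno3 made up the rest, and Pgam1 held 98.7% of the phosphoglycerate mutase pair in brown adipose and 0.529% in gastrocnemius. The change of form was near complete in both pairs. Glycogen genes did the same: Pygl, the liver-type phosphorylase gene, was higher in brown adipose by 7.72 ± 0.38 and the liver-type synthase gene Gys2 by 8.55 ± 0.33, while the muscle phosphorylase gene Pygm fell by 8.83 ± 0.51. Gys2 had 61.0 to 104.5 CPM in brown adipose and 0 to 0.425 CPM in gastrocnemius. Aldoa fell by 2.61 ± 0.22, Gapdh by 2.31 ± 0.16 and Ldha by 1.30 ± 0.13.

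**Figure D4:**
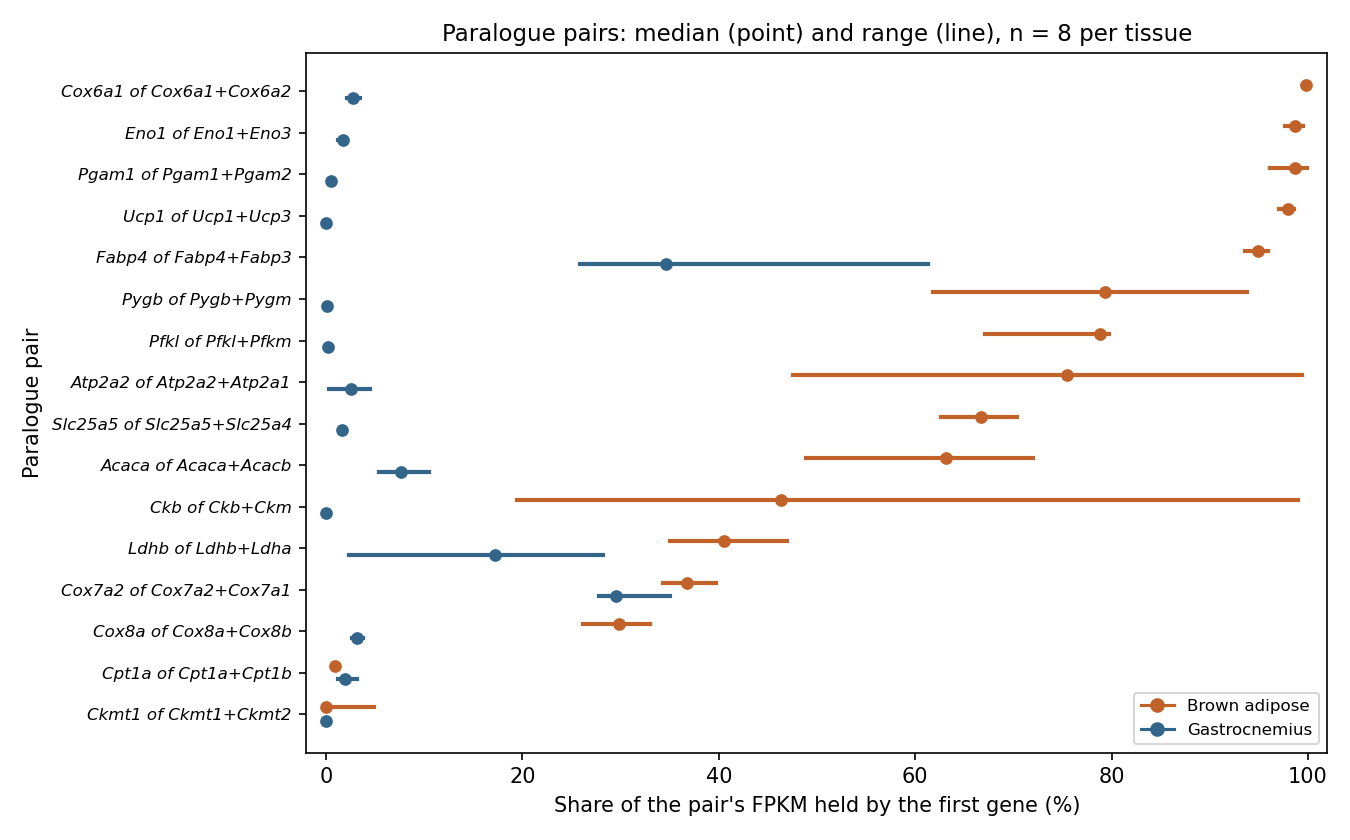
Share (%) of the summed FPKM of each paralogue pair held by the first-named gene, with medians as points and the range of 8 libraries as lines, brown adipose above gastrocnemius. Cox6a1, Eno1 and Pgam1 hold 98.7% or more (medians) in brown adipose and 2.77% or less in gastrocnemius, while the shares for Cox7a2 and Cpt1a lie close together.

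Creatine genes were mostly muscle genes. Of 8 listed, 7 were tested, 5 fell in brown adipose, 1 rose and 1 was not called. Ckmt2, the sarcomeric mitochondrial creatine kinase gene, had 0.0756 to 7.75 CPM in brown adipose and 414.1 to 1787 CPM in gastrocnemius, a log2 fold change of -8.55 ± 0.66. Ckb, the brain-type creatine kinase gene that has been tied to creatine cycling in brown fat, rose to 20.6 to 38.5 CPM in brown adipose, against 2.45 to 5.74 CPM in gastrocnemius, a log2 fold change of 2.89 ± 0.18. Ckm was nevertheless above Ckb in the median brown adipose library per gene length, at 28.4 FPKM for Ckm and 22.5 FPKM for Ckb. This Ckm level was small beside muscle, at a median of 0.245% of that in the same mouse's gastrocnemius, near the 0.248% of Myh4. In Q175 male 4 the 2 shares were 0.00142% and 0.00186%. The source of Ckm transcripts in brown adipose was not tested. The share for Ckb in the pair ran from 19.5 to 99.0% in brown adipose. Alpl, the alkaline phosphatase gene, was not called, at medians of 11.6 CPM in brown adipose and 14.5 CPM in gastrocnemius (adjusted p = 0.454).

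Regulators from the precursors the tissues have in common were mostly higher in muscle. Of 21 listed, 19 were tested, 14 fell in brown adipose, 11 of them over 8-fold, 3 rose and 2 were not called. The myogenic factor gene Myod1 had 15 counts over all 8 brown adipose libraries and 5.94 to 13.2 CPM in gastrocnemius, and the satellite cell gene Pax7 had 5 counts over the brown adipose libraries and 2.09 to 3.75 CPM in gastrocnemius. Mstn, which encodes the muscle growth inhibitor myostatin, had 0 to 0.195 CPM in brown adipose and 37.7 to 137.6 CPM in gastrocnemius. The genes that rose were Ebf1, by 2.36 ± 0.10, and Ebf3, by 1.94 ± 0.12, which belong to a family of early adipocyte factors, and Meox1, a somite homeobox gene, by 0.74 ± 0.20 in 6 of 8 mice. For Meox1 the ranges overlapped, with 2.12 to 6.61 CPM in brown adipose and 1.61 to 3.17 CPM in gastrocnemius. Ehmt1, a histone methyltransferase gene that acts with Prdm16, was not called at 0.11 ± 0.06 (adjusted p = 0.0792), but was with upper quartile scaling, at 0.22 and an adjusted p of 0.0028, where the median of all genes was 0.13. Positional genes also differed. Hoxc9 had 2 counts over all 8 brown adipose libraries and 3.82 to 4.74 CPM in gastrocnemius, whereas its neighbour Hoxc8 rose to 2.48 to 4.21 CPM in brown adipose, against 0.567 to 0.982 CPM in gastrocnemius.

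Secreted factors went in both directions. Of 23 listed, 19 were tested, 11 rose in brown adipose, 5 fell and 3 were not called. Angptl4, which inhibits lipoprotein lipase, had 156.3 to 331.2 CPM in brown adipose and 0.567 to 1.88 CPM in gastrocnemius, a log2 fold change of 7.51 ± 0.27. Lep, the leptin gene, had 14.97 to 79.2 CPM in brown adipose and 0.168 to 9.56 CPM in gastrocnemius, a log2 fold change of 4.11 ± 0.55. Fndc5, the precursor gene of irisin, had 0.681 to 22.5 CPM in brown adipose and 33.04 to 155.3 CPM in gastrocnemius, a log2 fold change of -4.44 ± 0.85 (adjusted p = 0.000619). Its ranges did not overlap, but those of Il15, the interleukin 15 gene, did: 1.79 to 5.90 CPM in brown adipose and 2.74 to 17.1 CPM in gastrocnemius, with a log2 fold change of -2.11 ± 0.27. Agt, the angiotensinogen gene, fell by 3.60 ± 0.20.

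Markers of other cells differed by less than the adipocyte and fibre genes. Their counts are to be read against all genes tested, of which 41.7% rose and 40.3% fell. Of 12 endothelial markers, 11 rose in brown adipose, 4 of them over 2-fold, and Vwf fell, with summed levels of 776.3 to 946.7 CPM in brown adipose and 318.8 to 558.1 CPM in gastrocnemius. Kdr, the VEGF receptor gene, had 129.3 to 182.3 CPM in brown adipose and 28.2 to 100.7 CPM in gastrocnemius, a log2 fold change of 1.62 ± 0.20. Of 10 fibroblast markers, 6 fell, 1 (Col3a1) rose and 3 were not called, with summed levels of 404.9 to 1243 CPM in brown adipose and 467 to 1126 CPM in gastrocnemius. Of 10 macrophage markers, 7 rose, Cd163 fell and 2 were not called, with summed levels of 94.9 to 633.2 CPM in brown adipose and 49.1 to 136.1 CPM in gastrocnemius. The highest of these was in Q175 male 4. Of 10 Schwann cell and nerve markers, 2 rose, 5 fell and 3 were not called. Their summed level nevertheless had the higher median in brown adipose, 162.8 CPM against 105.8 CPM in gastrocnemius. S100b, made by Schwann cells and also by adipocytes, had medians of 54.8 CPM in brown adipose and 1.71 CPM in gastrocnemius. Of 12 lymphocyte markers, 6 were tested, 4 rose and the antibody gene Ighm fell. The sum of the list had the lower median in brown adipose, 22.7 CPM against 46.8 CPM in gastrocnemius. All 5 tested red cell markers rose, with summed levels of 349.5 to 729.1 CPM in brown adipose and 102.4 to 263.3 CPM in gastrocnemius. The 1 keratinocyte marker tested, Krt10, was not called. Of 8 white adipose markers, 7 were tested and 5 rose, while Hoxc9 and Agt fell. The part of these cells in the other differences was not tested.

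Htt, the gene that carries the expanded repeat, was expressed in both tissues, at 24.3 to 29.6 CPM in brown adipose (median 25.7) and 15.6 to 20.5 CPM in gastrocnemius (median 19.1). It was higher in brown adipose in 8 of 8 mice, with ranges that did not overlap, as for 58.1% of all genes tested. The log2 fold change was 0.51 ± 0.07 (adjusted p = 2.84e-05).

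The contrast between the tissues was compared between male and female Q175 mice. It differed for 226 of 14558 genes (1.55%) by edgeR's interaction term. The signed log2 fold change of brown adipose over gastrocnemius was higher in males for 79 and higher in females for 147. These counts give the sign of the difference and not which sex had the stronger contrast. Slc15a5, a peptide transporter gene, was a male muscle gene here: in brown adipose it had 0.448 to 1.36 CPM in males and 0.187 to 0.368 CPM in females, and in gastrocnemius 13.9 to 23.1 CPM in males and 0.0937 to 0.382 CPM in females. The difference of the log2 contrasts was -4.67 ± 0.44 (adjusted p = 0.00965). Anxa2, an annexin gene, differed between the sexes in brown adipose, with 190.0 to 252.7 CPM in males and 68.4 to 106.0 CPM in females, and overlapped in gastrocnemius, with 31.2 to 39.7 CPM in males and 29.2 to 38.8 CPM in females (difference 1.29 ± 0.14, adjusted p = 0.0109). Papss2, which makes the sulphate donor PAPS, had 17.7 to 21.2 CPM in males and 31.6 to 53.5 CPM in females in brown adipose. Msrb1, a methionine sulphoxide reductase gene, had overlapping ranges of males and females in brown adipose, and 90.05 to 102.5 CPM in males and 57.0 to 61.5 CPM in females in gastrocnemius (difference -1.05 ± 0.11). Pafah2, Gstm2, Fuca2 and Prr32 were the other genes with the smallest p. The count changed much with 1 mouse left out. It was 3 without Q175 male 1, 5 without male 2, 18 without female 1, 19 without female 2, 46 without male 4 and 56 without female 4. It was 437 without female 3 and 589 without male 3, the mouse with Abhd1 within the wild-type ranges. Genes at an unadjusted p under 0.05 in edgeR changed less. There were 3032 with all mice, and from 2201 (without female 1) to 3466 (without male 3) with 1 left out. DESeq2 gave 981.

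**Figure D5:**
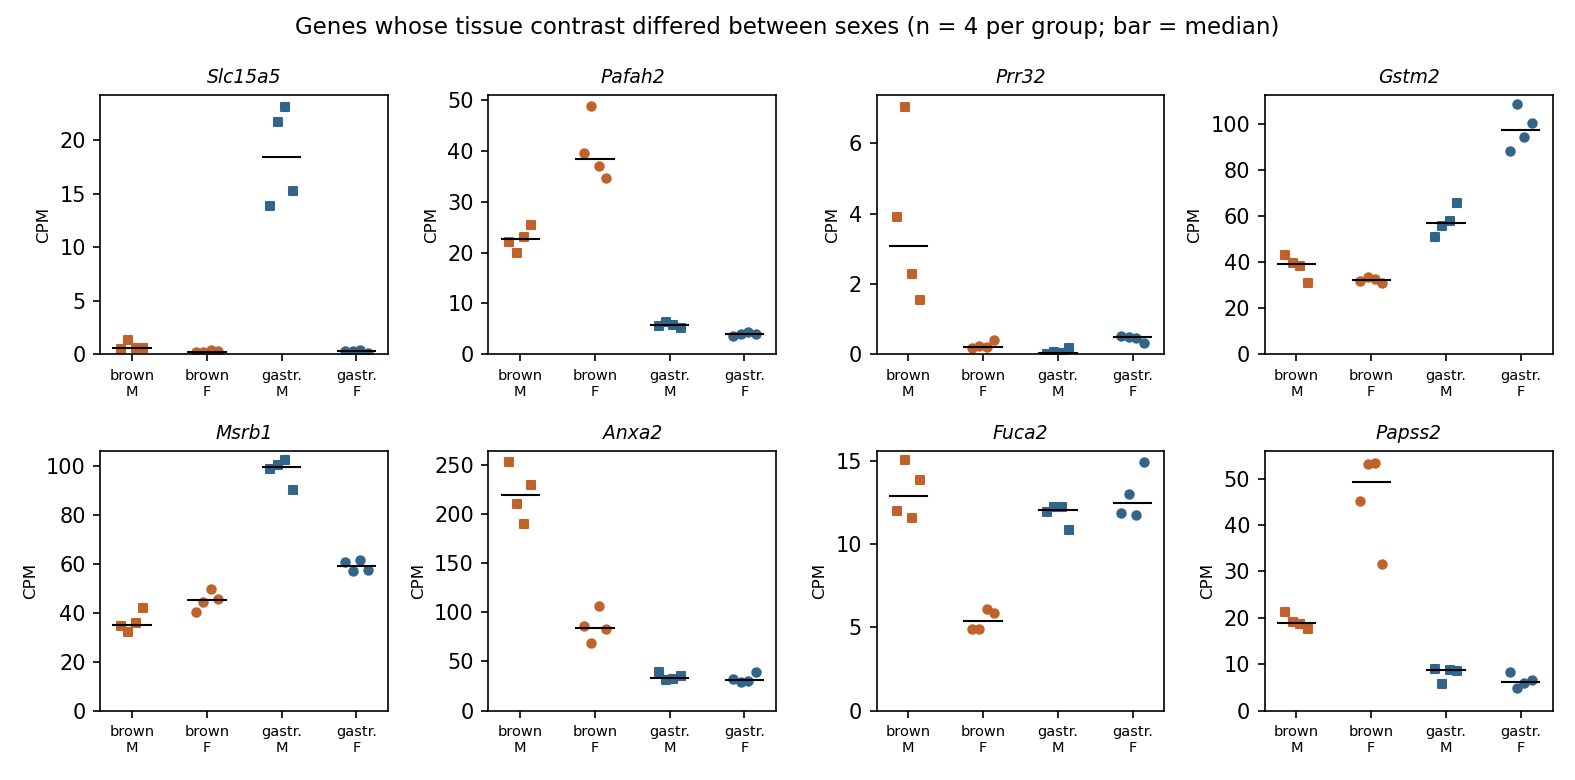
CPM of the 8 genes with the smallest p for a tissue contrast that differed between sexes, in brown adipose and gastrocnemius of male (squares) and female (circles) Q175 mice, 4 per group, with bars at the medians. Slc15a5 lies at 13.9 to 23.1 CPM in male gastrocnemius and at 1.36 CPM or less in the other groups, and Anxa2 at 190.0 to 252.7 CPM in male brown adipose, above each of the other groups.

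The contrast was also compared with that of the wild-type mice. It differed for 60 of 15406 genes (0.389%), with a lower log2 fold change of brown adipose over gastrocnemius in Q175 mice for 58 of them, and 55 of the 60 were higher in gastrocnemius in the Q175 contrast. Agt had 0.291 to 1.11 CPM in brown adipose of Q175 mice, against 0.918 to 5.86 CPM in that of wild-type mice, and 6.5 to 9.19 CPM in gastrocnemius of Q175 mice, against 6.37 to 10.6 CPM in that of wild-type mice (difference of the log2 contrasts -2.03 ± 0.33, adjusted p = 0.0387). Dkk2, a Wnt inhibitor gene, had 0.237 to 0.396 CPM in brown adipose of Q175 mice, against 0.434 to 2.15 CPM in that of wild-type mice (difference -2.58 ± 0.42, adjusted p = 0.0387). Plpp6, a lipid phosphatase gene, was 1 of the 2 genes that went the other way, with 27.6 to 37.8 CPM in brown adipose of Q175 mice, against 20.9 to 28.6 CPM in that of wild-type mice. Muscle transcripts moved with these groups. Fast fibre and sarcomere genes of brown adipose summed to 140.8 to 1385 CPM for Q175 mice, against 144.8 to 28000 CPM for wild-type mice. The Q175 brown adipose libraries were chosen with this low level known. The part of muscle transcripts in the 60 calls was not tested. Leaving mice out cannot decide it, since fewer mice also make fewer calls likely. Without the 5 wild-type mice over 5000 CPM, none of 15937 genes passed in edgeR, with 1118 at an unadjusted p under 0.05. None passed with all mice in limma on FPKM either, with 2349 at an unadjusted p under 0.05, while DESeq2 called 637. Without Q175 male 3, the mouse with Abhd1 within the wild-type ranges, none of 15476 genes passed in edgeR, with 1688 at an unadjusted p under 0.05.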

How the data were processed

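The samples, lists and genes described here were chosen with earlier results of these data known. The authors deposited estimated counts per Ensembl gene, not scaled between libraries. They also deposited FPKM values, scaled by the authors to gene length and library total. The submitters' processing notes list CASAVA 1.8.2. The aligner, counting program, genome build, annotation and strand setting were not given in the sources used here. Overlapping genes on opposite strands therefore cannot be told apart. On average 14.3% of count values were not whole (tolerance 1e-06), and they were rounded for the tests. Symbols matched 36639 of 38561 identifiers.

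Only Q175 libraries of both tissues entered the main fit: edgeR 4.0.16 in R 4.3.3, filterByExpr by tissue, TMM scaling, robust quasi-likelihood F-tests with the animal as a block and Benjamini-Hochberg adjustment over all genes tested. The differences between sexes and between genotypes were tested as interaction terms in the same way. The animal code pairs libraries, because both come from 1 mouse. Deviations from the tissue mean over 7771 genes with a mean of at least 10 CPM correlated at 0.113 to 0.303 within a mouse. With the other mice the mean correlation was -0.0462 to -0.0195. Centring on the mean of the 8 mice pushes this value below 0 when the correlation within a mouse is positive. It is therefore no separate support for the pairing. Sex was not removed from the deviations, and the best match of Q175 female 2, female 3 and male 4 was another mouse. Title replicate numbers name different mice in the 2 tissues. Nothing says whether any library was prepared more than once. Levels of single genes are CPM on the TMM scale, computed from the counts, as minimum, median and maximum of 8. Summed list levels are on the plain library total. For Abhd1, for Htt beside wild type and for the genotype comparison, TMM was computed over the libraries of both genotypes. Intervals are standard errors of the log2 fold change. The models were run on simulated counts with few changed genes, small folds and the same dispersion for every gene. Most genes differed in the real data, so that run cannot speak for scaling or error rates in this contrast. DESeq2 1.42.0, limma 3.58.1 on log2 of FPKM plus 1 or plus 0.1, RLE and upper quartile scaling, TMM without mitochondrially encoded genes, no low-count filter, no animal block, leaving out mice, and only libraries with the code L6 were the alternatives. The L number in library names is taken to be a lane without a source for it. It runs from L6 to L8 in brown adipose and from L4 to L6 in gastrocnemius.

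Named genes are Htt and the 4 markers, the 12 largest rises and 12 largest falls with a mean of at least 50 CPM, both members of each paralogue pair, from each list up to 4 called members per direction and those not called or against their list, and 8 genes per interaction. Named outside this rule, after their values were seen, are Dio2, Elovl3, Ppargc1a, Ppargc1b, Prkar1a, Tpm3, Chrnb1, Aldoa, Gapdh and Abhd1, and some genes the rule selects are given only in counts or are not reported here. Of 454 listed genes, 1 was not matched. Promoter windows are the first entry per gene of a RefSeq table.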

Additional observations from a re-analysis of the deposited data

Results flagged for a closer look

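Each highest or lowest library was set against the rest of its tissue's 8 by Dixon's ratio (limit 0.526), for 102 sets of 8 values. There were 8 flags, where chance gives about 1 in 20. In brown adipose, Q175 male 4 had 633.2 CPM of summed macrophage markers, with the next mouse at 225.8. Q175 female 4 had 729.1 CPM of red cell markers, with the next at 493.7, and Q175 female 3 had 79.2 CPM of Lep, with the next at 41.7. In gastrocnemius, Q175 male 4 had 374.2 CPM of Schwann cell and nerve markers, with the next at 181.6, and 4.17 CPM of Elovl6, with the next at 1.62. Q175 male 3 had 129.4 CPM of lymphocyte markers, with the next at 52.5. Q175 female 4 had 191.1 CPM of Ucp3, with the next at 115.3. Q175 female 1 had 25.7 CPM of keratinocyte markers, with the next at 2.35.

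The contrast between the tissues differed between groups in both tests of that difference: between sexes for 226 genes, and between Q175 and wild-type mice for 60 genes. Without Q175 male 3 these counts were 589 and 0. The genotype count was also 0 in limma on FPKM and 0 without the 5 muscle-rich wild-type mice. Summed sarcomere transcripts in brown adipose had a median of 6768 CPM in wild-type and 737.2 CPM in Q175 mice. Their part in the 60 calls was not tested.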

How the results depend on the processing

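Of 208 named genes tested, 172 kept their side of the threshold in each of the 18 alternatives, and no called gene changed sign in them. Direction was not compared for genes called in neither fit. The count of called genes, 11936, ran from 10231 with the 4 brown adipose and 3 gastrocnemius libraries of code L6 to 13552 with no filter, with 12051 without the replicate block (sex in place of the animal). With single mice left out it ran from 11660 to 11784, and the counts over 2-fold ran from 3189 to 3238 (higher in brown adipose) and from 2971 to 3082 (higher in gastrocnemius). Those over 8-fold ran from 663 to 689 and from 941 to 962. From log2 FPKM plus 1, which shrinks folds of low genes, 1564 genes were over 2-fold higher in gastrocnemius, and 262 (brown adipose) and 407 (gastrocnemius) over 8-fold. Without a filter 1045 were over 8-fold higher in brown adipose. The sex count with 1 mouse left out, an alternative chosen after seeing the data, was 3 to 589 (18, 19, 437 and 56 without female 1 to 4, and 3, 5, 589 and 46 without male 1 to 4), and it was 981 in DESeq2. The genotype count was 637 in DESeq2, 8 without a filter, 0 in limma on FPKM 0 without the 5 muscle-rich wild-type mice and 0 without Q175 male 3 (added after seeing the data); the cause was not tested. Without the replicate block Ldhb lost its call, and Cd2, Ehmt1, Fuca2 and Prr32 gained one, among the named genes. Depth limits genes at a few counts in 1 tissue, such as Slc27a2, Hoxc9 and Pax7.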

Other observations

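The paralogues that separated brown adipose from gastrocnemius were also read in the other 9 tissues of the Q175 mice (median FPKM of 8 libraries, a level per gene length with no test). Cox6a2, the muscle form of the oxidase subunit 6A gene, had 2.13 FPKM in brown adipose, against 655.4 FPKM in gastrocnemius and 727.2 FPKM in heart. Cox8b, the muscle form of subunit 8, was high in all 3, with 1866 FPKM in brown adipose, 735.0 FPKM in gastrocnemius and 722.2 FPKM in heart, and had 23.6 FPKM in intestinal and 21.8 FPKM in gonadal white adipose. Cox7a1, the heart and muscle form of subunit 7A, had 747.9 FPKM in brown adipose, 408.8 FPKM in gastrocnemius and 1083 FPKM in heart. Of these 3 muscle forms of the oxidase, Cox6a2 was the one at a low level in brown adipose.

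Atp5g1 was lower in brown adipose, at 6.44 FPKM, than in each of the other tissues. It had 546.9 FPKM in gastrocnemius, 945.4 FPKM in heart, 50.2 FPKM in gonadal and 45.3 FPKM in intestinal white adipose, and 64.5 FPKM in corpus callosum. Eno1 had 1008 FPKM in brown adipose and 389.1 FPKM in hippocampus, the next tissue. Gys2 had 36.6 FPKM in brown adipose, and its next level was 5.35 FPKM in intestinal white adipose. Hoxc9 had a median of 0 in brown adipose and in heart, 1.74 FPKM in gastrocnemius and 2.45 FPKM in gonadal white adipose. Ucp1 had 1721 FPKM in brown adipose and 7.97 FPKM in heart.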
